A study of Mus musculus with 30 samples.

Results

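The comparison set all 15 libraries of mice with a spared nerve injury (SNI) against all 15 libraries of sham-operated mice, whatever drug the mice had received. The 30 libraries are all those of the series, and they were chosen by the surgery in their labels. Each library came from the nucleus accumbens, punched on both sides, of 1 male C57BL/6J mouse. The injury was tibial, and injections began 4 weeks after surgery and went on for 3 weeks, intraperitoneally and 2 times a day. Among SNI mice, 4 received desipramine at 15 mg/kg, 6 received tianeptine at 30 mg/kg and 5 received saline. Among sham mice, likewise, 4 received desipramine, 6 tianeptine and 5 saline. Desipramine (DMI in the labels), a tricyclic antidepressant, inhibits the noradrenaline transporter, and tianeptine (TIAN), also given against depression, is an agonist of mu-opioid receptors. The comparison asks which genes differ after nerve injury on average over the drugs. It is not the same as injury alone, since 10 of the 15 mice on each side had a drug.

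In spared nerve injury, branches of the sciatic nerve are cut while another is left intact, and the paw becomes lastingly sensitive to touch. The nucleus accumbens lies in the ventral striatum and weighs reward, motivation and the aversive side of pain. Most of its neurons are inhibitory medium spiny neurons that carry dopamine D1 or D2 receptors, and a small share are cholinergic and other interneurons. It borders the septum, the preoptic area, the lateral ventricle and the cortex, so that a punch can hold tissue of these neighbours.

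The libraries fall into 2 sets. Replicates 1 to 4 of every group (12 SNI and 12 sham libraries) held 25.7 to 37.7 M (mega) counts in SNI and 24.5 to 36.0 M in sham. Replicates 5 and 6 (3 SNI and 3 sham libraries, none with desipramine) held 98.0 to 107.0 M in SNI and 104.6 to 120.7 M in sham. In the first set the number that follows S in the library names runs from 1 to 12 in SNI and from 13 to 24 in sham, so an effect of any step done in that order cannot be told apart from surgery. The markers of the labelled region were present in every library: the 26 genes of medium spiny neurons summed to 2700 to 16300 CPM (counts per M counts) in SNI, median 11200, and to 9210 to 17600 CPM in sham, median 14500.

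Some libraries stood apart by markers of neighbouring tissue. The measure is a list score: the log2 CPM of each gene minus its average over the 30 libraries, then averaged over the genes of the list. The SNI desipramine libraries 2 and 3 had the lowest scores of medium spiny neurons, -2.26 and -0.73, and the highest scores of septal, hypothalamic and thalamic neurons, 1.53 and 1.47. In sham, saline library 3 had the highest scores of fibroblasts and meninges, 2.67, and of antigen presentation, 1.49, and saline library 2 came next for antigen presentation, 1.26. Tianeptine sham library 6 had the highest score of choroid plexus and ependyma, 3.24. The tests over all treatments and within each treatment were therefore also run without these 5 libraries, of which 2 are SNI and 3 sham. Some results, such as the list medians within saline and within tianeptine, are given with all 30 libraries only. The 5 libraries were chosen by the scores of these lists, so a median of one of these lists nearer 0 without them follows in part from that choice.

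**Figure D1:**
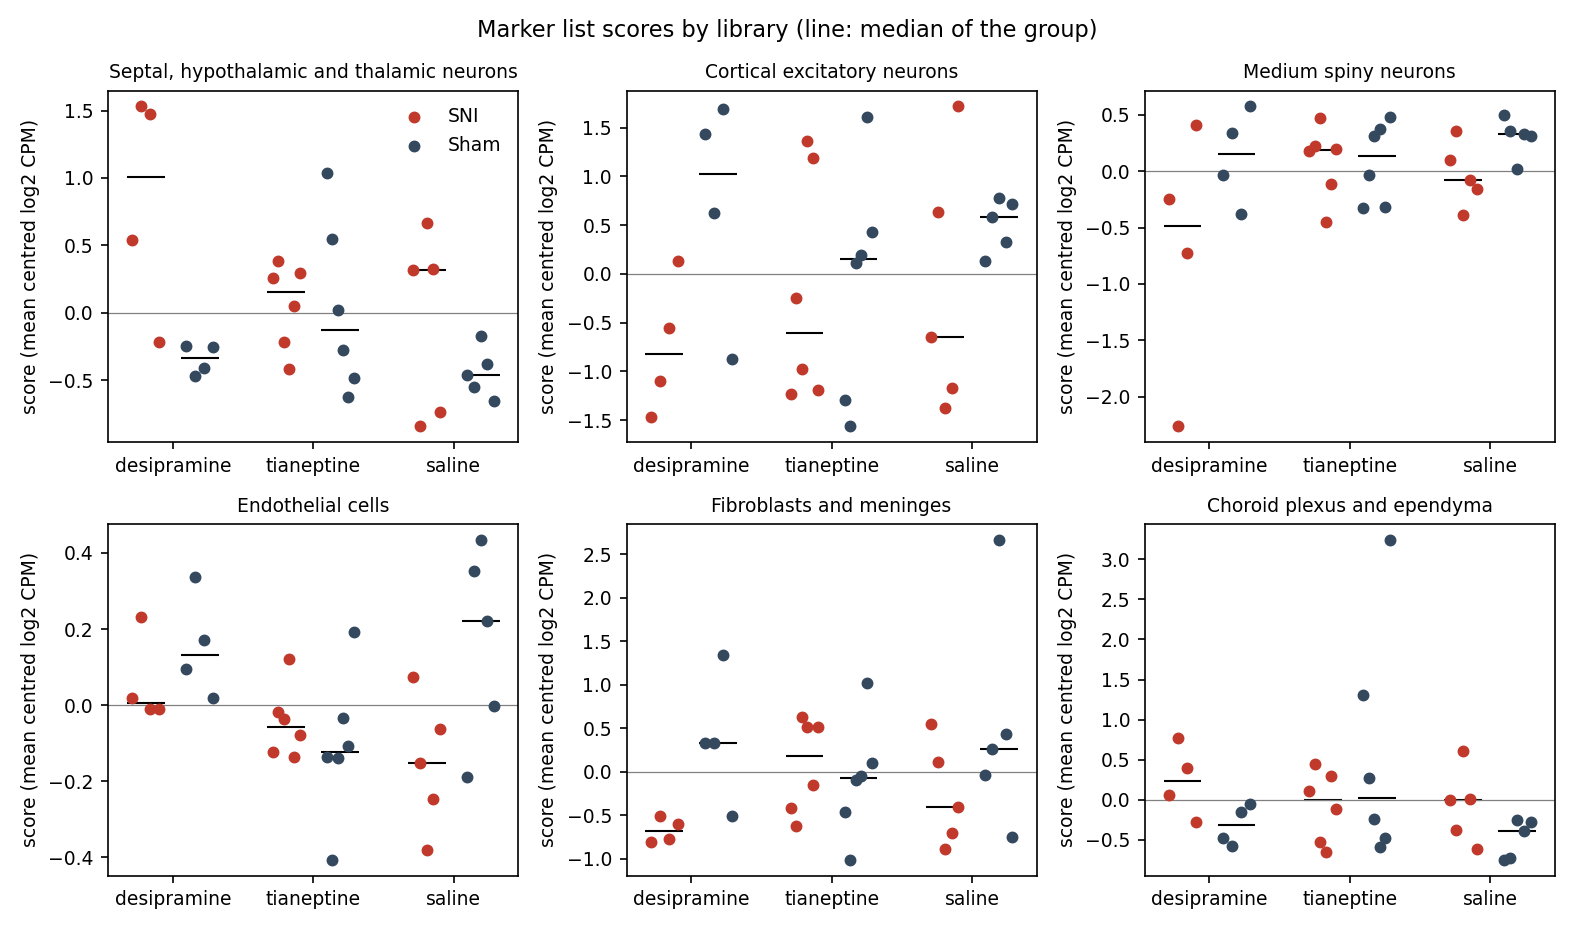
Scores of 6 marker lists (mean centred log2 CPM, y axis) in each of the 30 libraries, with SNI in red to the left of sham in dark blue within each treatment, and a line at the group median. The SNI desipramine libraries reach 1.53 for septal, hypothalamic and thalamic neurons and -2.26 for medium spiny neurons, while sham holds the highest fibroblast score (2.67) and the highest choroid plexus score (3.24).

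No gene passed the test of SNI against sham over all treatments. The test was edgeR's quasi-likelihood test with treatment and library set as covariates, with p values adjusted by Benjamini and Hochberg over 23736 genes. The lowest adjusted p was 0.252, and 0 genes (0.0%) were under the threshold of 0.05. At an unadjusted p under 0.05 there were 3584 genes (15.1%), of which 1997 (8.41%) were higher and 1587 (6.69%) lower in SNI. DESeq2 called 1 gene (0.00421%), Lhx5 (adjusted p = 0.00787), and limma-voom called 0, with 3748 and 3502 genes at an unadjusted p under 0.05. Averaging the 3 within-treatment contrasts with equal weight, from a fit of the 6 groups, edgeR called 437 genes (1.84%). Of these, 362 were higher (1.53%) and 75 lower (0.316%), and this average is given with all 30 libraries only. In the first library set alone 0 genes (0.0%) passed and 3403 (14.3%) had an unadjusted p under 0.05, and in the second set alone 0 (0.0%) passed and 470 (1.98%) did.

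The average differences were small. The median size of the log2 fold change, whatever its sign, was 0.0745, and the median standard error (SE) was 0.079. For 96.1% of the genes the 95% interval lay within 1 log2 unit of 0, a 2-fold change, and for 81.3% it lay within 0.5. In 0 genes (0.0%) did the 15 SNI libraries not overlap the 15 sham libraries. Without the 5 libraries that stood apart, 0 genes (0.0%) passed (lowest adjusted p = 0.999) and 1042 (4.39%) had an unadjusted p under 0.05, 555 higher (2.34%) and 487 lower (2.05%). Of these 1042 genes 832 were among the 3584, which is 79.8% of the 1042 and 23.2% of the 3584. With the scores of 4 marker lists as covariates (medium spiny neurons, septal to thalamic neurons, choroid plexus, fibroblasts), 0 (0.0%) passed and 639 (2.69%) had an unadjusted p under 0.05.

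The same comparison was then made within each drug. Within desipramine, 2682 genes (11.3%) passed, 1713 higher (7.22%) and 969 lower (4.08%) in SNI, and 6562 (27.6%) had an unadjusted p under 0.05. Within tianeptine 0 genes (0.0%) passed and 287 (1.21%) had an unadjusted p under 0.05, and within saline 0 genes (0.0%) passed and 2311 (9.74%) did. The median size of the log2 fold change was 0.181 within desipramine, 0.0504 within tianeptine and 0.105 within saline. The median SE was 0.151, 0.12 and 0.133 in that order, with 4, 6 and 5 libraries per side. These sizes differ in precision, and they were not themselves compared by a test. Within tianeptine the p values leaned towards 1, with 287 genes under 0.05 and 1878 from 0.95 up, and why was not tested. The desipramine count rests on few libraries: it was 13 without SNI library 2, 617 without SNI library 3, 5802 without SNI library 4, 1566 without sham library 1, 1337 without sham library 3, and 0 without SNI libraries 2 and 3 or without all 5.

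The difference between the treatments was itself tested, as the interaction of surgery with treatment. In edgeR 0 of 23736 genes (0.0%) passed (lowest adjusted p = 0.159) with 3471 (14.6%) at an unadjusted p under 0.05, limma-voom gave 0 and 3237, and DESeq2 called 290 (1.22%). Without SNI desipramine library 4, edgeR called 2006 (8.45%). The 3 within-treatment contrasts share no library, though they share 1 estimate of the spread. Across genes, which are not independent replicates, their log2 fold changes had a Pearson r of 0.448 between desipramine and saline, -0.0278 between tianeptine and desipramine and 0.125 between tianeptine and saline. Of all genes, 7607 (32%) had the same sign in the 3 treatments, a share that also holds genes whose signs coincide by chance. By pairs, the sign was the same in 64.3% of genes for desipramine and saline. It was the same in 50.5% for tianeptine and saline and in 49.3% for tianeptine and desipramine.

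**Figure D2:**
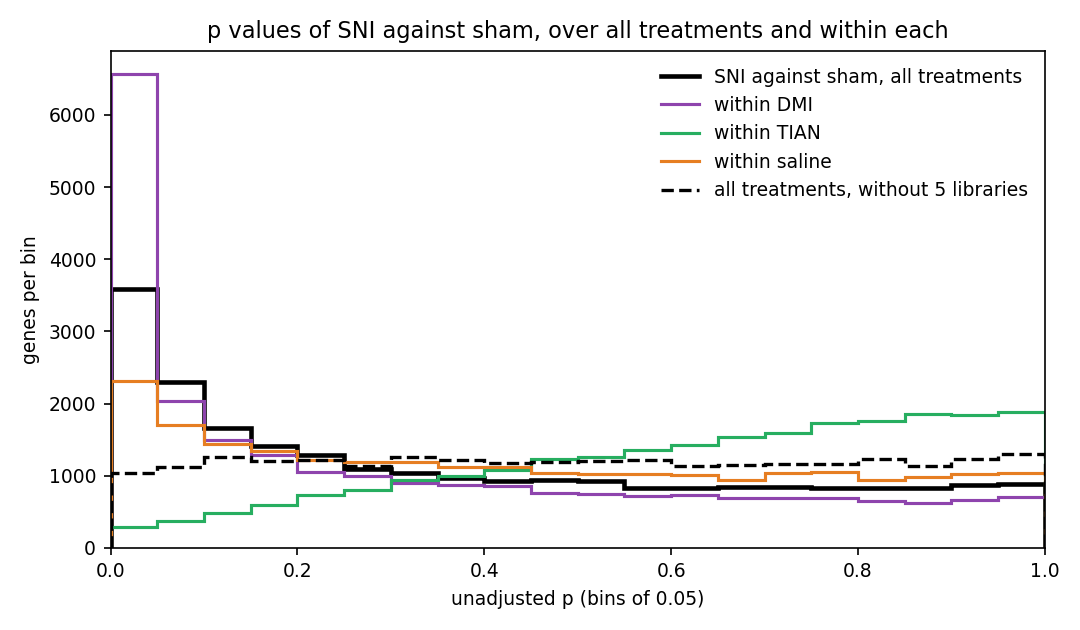
Number of genes per bin of unadjusted p (x axis, bins of 0.05) for SNI against sham over all treatments (thick black), within desipramine (DMI, purple), tianeptine (TIAN, green) and saline (orange), and over all treatments without the 5 libraries that stood apart (dashed). The first bin holds 3584 genes over all treatments, 6562 within desipramine, 287 within tianeptine, 2311 within saline and 1042 without the 5 libraries.

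The 5 genes of smallest p in the interaction test, none of which passed (each adjusted p = 0.159, edgeR), mostly had their largest estimates within desipramine. Gldn, gliomedin of the nodes of Ranvier, had a log2 fold change of 1.76 ± 0.28 (SE) within desipramine, -0.12 ± 0.21 within tianeptine and 0.32 ± 0.24 within saline. Ldha, the lactate dehydrogenase subunit A, gave -0.59 ± 0.10, -0.01 ± 0.08 and 0.06 ± 0.09 in the same order. Tnfsf13b, the B cell survival factor BAFF, gave 1.24 ± 0.21, -0.14 ± 0.17 and 0.09 ± 0.19, and Bend4 gave 0.69 ± 0.12, -0.02 ± 0.10 and -0.06 ± 0.11. Ccdc192 was the exception, with 0.81 ± 0.26 within desipramine, -0.61 ± 0.19 within tianeptine and -0.90 ± 0.22 within saline. Averaged over treatments, these 5 genes lay between -0.36 ± 0.18 (Ccdc192) and 0.50 ± 0.20 (Gldn).

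Of the 10 named genes that were higher in SNI by smallest p, none passed over all treatments, and all 10 passed within desipramine alone. Of all genes 7.22% passed higher there, and 0 passed there without SNI desipramine libraries 2 and 3. The ranking that chose the 10 genes used the same desipramine libraries, so their passing there follows in part from that choice. Lhx5, a LIM homeodomain transcription factor of the developing forebrain (chromosome 5, 120431699 to 120441223, mm10), ranged from 0.0718 to 7.9 CPM in SNI, median 0.435, and from 0.0248 to 0.658 CPM in sham, median 0.206. Most SNI libraries lay within the sham range, and the others lay above it. The highest were desipramine libraries 2 (7.90 CPM) and 3 (5.36 CPM), which stood apart by the markers of septal, hypothalamic and thalamic neurons. The log2 fold change of Lhx5 was 2.29 ± 0.50 over all treatments, with 4.36 ± 0.83 within desipramine, 0.87 ± 0.67 within tianeptine and 2.24 ± 0.80 within saline. With the 4 list scores as covariates it was 0.93 over all treatments. Lhx1, its close relative, ranged from 0.0275 to 3.23 CPM in SNI and from 0 to 0.595 CPM in sham (log2 fold change 2.37 ± 0.60, and 1.03 with the 4 list scores). Lhx1 too was highest in SNI desipramine libraries 2 (3.23 CPM) and 3 (1.93 CPM). Its values followed the same order of drugs, 6.00 ± 1.15, 0.49 ± 0.73 and 2.93 ± 0.97.

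Rec8, a cohesin subunit best known from meiosis (chromosome 14, 55618037 to 55625395), had 13.2 to 22.3 CPM in SNI, median 17.7, and 7.97 to 16.6 CPM in sham, median 14.3. The ranges overlap, and 14 of 15 SNI libraries lay above the sham median. The log2 fold change was 0.36 ± 0.08 over all treatments and 0.40 ± 0.09 without the 5 libraries, with 0.73 ± 0.14 within desipramine, 0.22 ± 0.12 within tianeptine and 0.23 ± 0.13 within saline. Tceal1, a transcription elongation factor A-like protein, had 17.9 to 29.1 CPM in SNI, median 21.4, and 14 to 21 CPM in sham, median 17.7. All 15 SNI libraries lay above the sham median (log2 fold change 0.31 ± 0.08, and 0.18 ± 0.07 without the 5 libraries).

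Kcns3, a modulatory potassium channel subunit, had 3.25 to 7.63 CPM in SNI, median 5.11, and 2.58 to 5.39 CPM in sham, median 3.63 (log2 fold change 0.44 ± 0.11). Wsb1, a subunit of a ubiquitin ligase, had 107.0 to 149.0 CPM in SNI, median 123.0, and 87.8 to 136.0 CPM in sham, median 108.0 (0.22 ± 0.05). For both genes 14 of 15 SNI libraries lay above the sham median. Fam19a4, a secreted chemokine-like protein of touch-sensitive sensory neurons, had 0.98 to 4.31 CPM in SNI, median 2.03, and 0.927 to 2.32 CPM in sham, median 1.24 (0.79 ± 0.19). Ikzf2, the transcription factor Helios, gave 0.41 ± 0.10, Atp4a, the catalytic subunit of the gastric proton pump, 0.74 ± 0.18, and Dsc3, a cadherin of desmosomes, 1.30 ± 0.31. In all 10 genes the log2 fold change was largest within desipramine and smallest within tianeptine, but that order was not tested gene by gene beyond the interaction test, in which none of them passed.

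**Figure D3:**
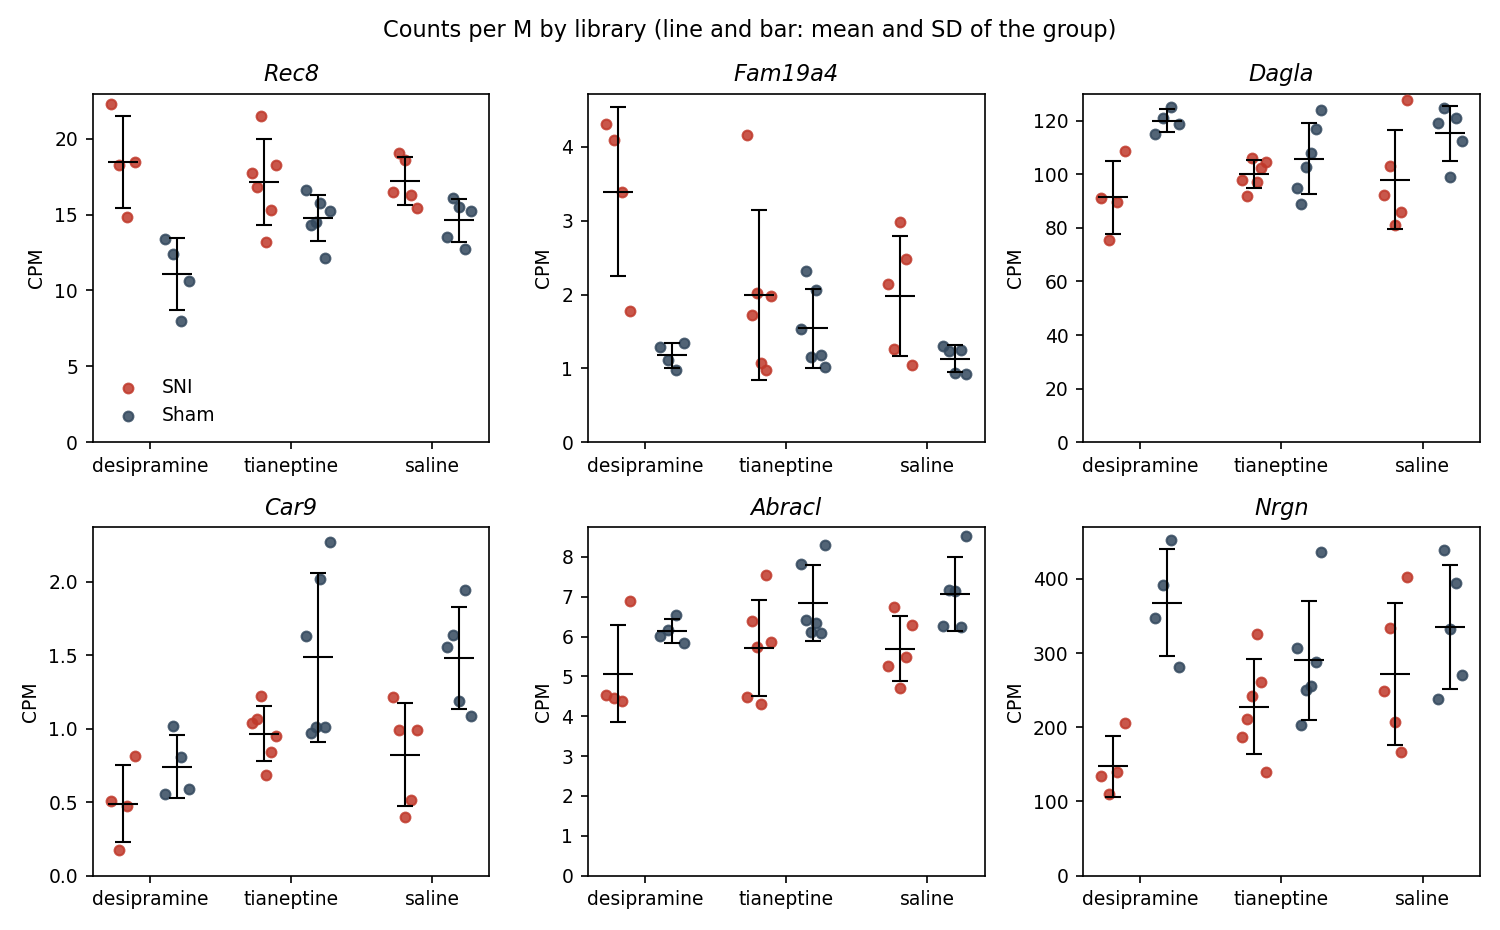
CPM (y axis, from 0) of 6 of the named genes in each library, with SNI in red to the left of sham in dark blue within each treatment, and the mean and SD of each group in black. Rec8 and Fam19a4 were higher on average in SNI in the 3 treatments, and Dagla, Car9, Abracl and Nrgn lower, with overlapping ranges over all libraries for each gene.

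Of the 10 named genes that were lower in SNI, none passed over all treatments, and for Car9, Abracl and Hp the estimates within the treatments differed by about 1 SE or less. Car9, carbonic anhydrase 9 of the hypoxia response (chromosome 4, 43506966 to 43513729), had 0.172 to 1.22 CPM in SNI, median 0.843, and 0.558 to 2.27 CPM in sham, median 1.08. Of 15 SNI libraries 13 lay below the sham median. Its log2 fold change was -0.70 ± 0.18 over all treatments, -0.61 ± 0.40 within desipramine, -0.64 ± 0.27 within tianeptine and -0.82 ± 0.31 within saline. Abracl, a small protein of the costars family, had 4.3 to 7.54 CPM in SNI, median 5.49, and 5.83 to 8.52 CPM in sham, median 6.34. It gave -0.28 ± 0.15, -0.26 ± 0.12 and -0.31 ± 0.13 in the same order of drugs (-0.28 ± 0.07 over all). Hp, haptoglobin, which binds free haemoglobin, gave -1.08 ± 0.45, -0.62 ± 0.29 and -0.70 ± 0.35 (-0.74 ± 0.19 over all), at 0.109 to 0.412 CPM in SNI and 0.166 to 0.874 CPM in sham. Without the 5 libraries these were -0.53 ± 0.18 for Car9, -0.22 ± 0.08 for Abracl and -0.47 ± 0.16 for Hp over all treatments.

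Dagla, which makes the endocannabinoid 2-arachidonoylglycerol (chromosome 19, 10245265 to 10304877), had 75.5 to 128.0 CPM in SNI, median 97.2, and 88.7 to 125.0 CPM in sham, median 117.0. In 14 of 15 SNI libraries it was below the sham median, though 1 SNI library had the highest level of all. The log2 fold change was -0.22 ± 0.06 over all treatments, -0.39 ± 0.10 within desipramine, where it passed (adjusted p = 0.0169, edgeR), -0.08 ± 0.08 within tianeptine and -0.24 ± 0.09 within saline. Dhx8, an RNA helicase of the spliceosome, gave -0.11 ± 0.03 over all treatments at 40.2 to 48.0 CPM in SNI and 44.2 to 51.9 CPM in sham. Hmgxb3 gave -0.11 ± 0.03 at 43.8 to 58.5 CPM in SNI and 53.9 to 63.5 CPM in sham. These 2 differences are of about 0.1 log2 unit, in genes whose levels varied little between libraries.

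Fzd10, a Wnt receptor, had 0.388 to 1.37 CPM in SNI, median 0.723, and 0.81 to 1.78 CPM in sham, median 0.952 (log2 fold change -0.61 ± 0.16), but 0.09 in the second library set alone. Nrgn, neurogranin, which binds calmodulin in the spines of forebrain neurons, had 111.0 to 403.0 CPM in SNI, median 207.0, and 203.0 to 453.0 CPM in sham, median 306.0. It gave -0.59 ± 0.16 over all treatments and -1.32 ± 0.27 within desipramine (adjusted p = 0.00725, edgeR). H2-Q6, a class I histocompatibility gene with near-identical relatives that can share its reads, gave -1.29 ± 0.35 and -0.41 ± 0.21 without the 5 libraries. Lcn2, lipocalin 2 of the acute phase response, rested on 2 sham libraries. It had 0 to 0.155 CPM in SNI and 0 to 3.86 CPM in sham, where saline library 2 (3.86) and tianeptine library 6 (3.8) were the only ones above 0.646. Its log2 fold change of -3.04 ± 0.83 became 0.15 ± 0.42 without the 5 libraries, which include both.

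For the gene lists, the counts at an unadjusted p under 0.05 stand beside the background above (8.41% of all genes higher, 6.69% lower, and 50.7% above a log2 fold change of 0), since no member of any of the 44 lists passed over all treatments. List counts without the 5 libraries stand beside their own background, 2.34% of all genes higher and 2.05% lower, with 49.3% above 0. Above a log2 fold change of 0 lay 51.0% of all genes within desipramine, 50.6% within tianeptine and 50.6% within saline. Among neurons, the markers of septal, hypothalamic and thalamic neurons were mostly higher in SNI. Of 20 tested members 15 were higher, 9 with an unadjusted p under 0.05 and 2 lower with one, and the median log2 fold change was 0.66, against 0.002 over all genes. The score was below 0 in 5 of 15 SNI libraries and in 12 of 15 sham libraries. Tcf7l2, a transcription factor of thalamic neurons, had 6.35 to 42.8 CPM in SNI, median 11.6, and 5.67 to 9.99 CPM in sham, median 7.77 (0.76 ± 0.20). Gal, the peptide galanin, gave 1.69 ± 0.58, and Irs4, an insulin receptor substrate of the hypothalamus, 1.57 ± 0.54. Within desipramine 10 of the 20 passed, all higher (7.22% of all genes passed higher there), and the list median was 1.34, with 0.05 within tianeptine and 0.36 within saline. Without SNI desipramine libraries 2 and 3, which had the highest scores of this list, none of the desipramine calls in this or any other list was left, and without the 5 libraries the median within desipramine was 0.64. The median over all treatments was 0.32 without the 5 libraries.

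Cholinergic markers were mostly higher as well. Of 11 members 10 were higher in SNI, 6 with an unadjusted p under 0.05, and the median was 0.38 (0.34 without the 5 libraries). Chat, which makes acetylcholine, had 18 to 90.0 CPM in SNI, median 35.5, and 12.4 to 43.2 CPM in sham, median 32.7 (0.45 ± 0.21). Lhx8, a transcription factor of forebrain cholinergic neurons, had 5.1 to 81.1 CPM in SNI, median 27.8, and 3.95 to 26.7 CPM in sham, median 10.4 (1.06 ± 0.34). Within desipramine 8 of the 11 passed, all higher (7.22% of all genes), and 0 without SNI libraries 2 and 3. Of 16 interneuron markers 8 were higher and 8 lower in SNI, 3 of the higher ones with an unadjusted p under 0.05, and the median was -0.01. The interneuron factor Lhx6 had a log2 fold change of 0.80 ± 0.23, while Sst and Npy, peptides of striatal interneurons, gave 0.05 ± 0.07 and -0.04 ± 0.12.

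All 26 markers of medium spiny neurons were lower in SNI, 4 of them with an unadjusted p under 0.05, and the median was -0.28. It was -0.59 within desipramine, -0.01 within tianeptine and -0.32 within saline, and -0.09 over all treatments without the 5 libraries. Within desipramine it was -0.06 without them, and they include the SNI libraries 2 and 3 that had the lowest scores of this list. Drd1, the D1 receptor, had 19.3 to 261.0 CPM in SNI, median 164.0, and 112.0 to 271.0 CPM in sham, median 212.0 (-0.26 ± 0.20). Drd2, the D2 receptor, gave -0.35 ± 0.19, and Ppp1r1b, the dopamine-regulated phosphatase inhibitor DARPP-32, -0.29 ± 0.19. In bulk tissue, fewer cells of a type and less RNA per cell cannot be told apart. Cortical excitatory markers spread widely between libraries, and Slc17a7, their vesicular glutamate transporter, had 1.55 to 741.0 CPM in SNI, median 21, and 1.79 to 961.0 CPM in sham, median 245.0. Its log2 fold change was -0.90 ± 0.92, so the difference was about the size of its SE. Of these 18 markers 16 were lower in SNI, 1 with an unadjusted p under 0.05.

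**Figure D4:**
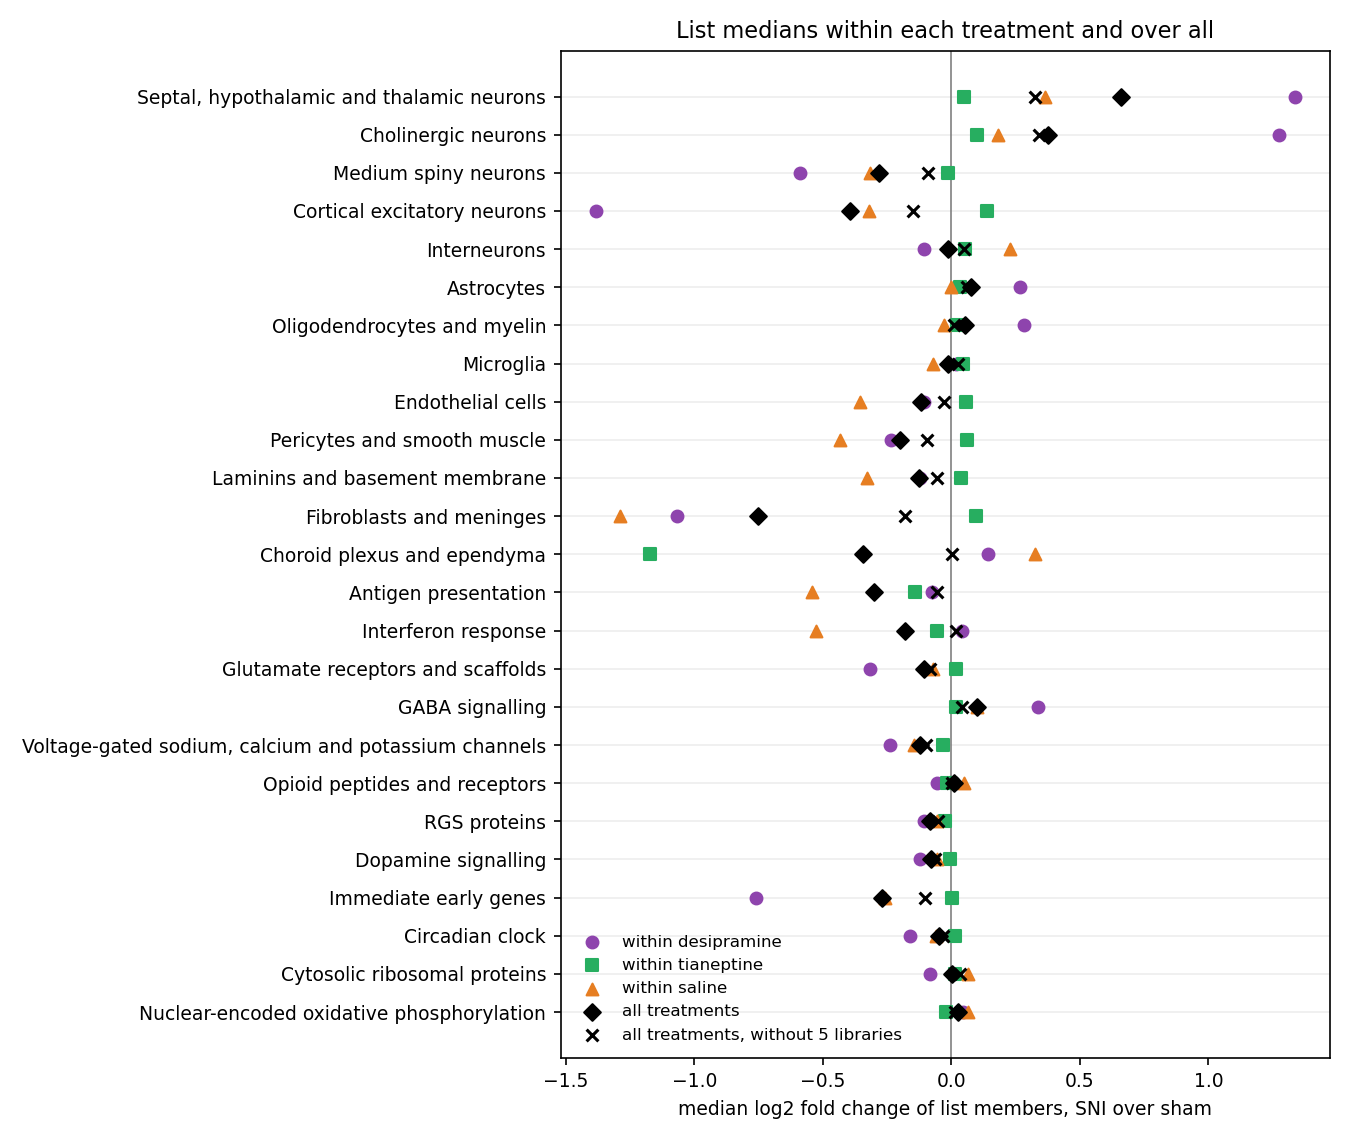
Median log2 fold change (x axis, SNI over sham) of the members of 25 gene lists within desipramine (purple circles), tianeptine (green squares) and saline (orange triangles), over all treatments (black diamonds) and over all treatments without the 5 libraries that stood apart (crosses). The medians of septal, hypothalamic and thalamic neurons are 1.34, 0.05 and 0.36 in the 3 treatments, and the crosses mostly lie nearer 0 than the diamonds, as for fibroblasts (-0.18 against -0.75).

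Vessel and connective tissue markers were mostly lower in SNI over all treatments and within saline and desipramine. Within tianeptine they were mostly higher, but by medians under 0.12, the median SE of that contrast over all genes. No gene passed within tianeptine or saline, members of a list are not independent, and the difference between treatments was not tested for lists. Within tianeptine 18 of 26 endothelial, 15 of 18 pericyte and smooth muscle and 16 of 20 fibroblast and meningeal markers were higher (medians 0.06, 0.06 and 0.09), and within saline none was (medians -0.36, -0.43 and -1.29). Within desipramine 5 of 26, 5 of 18 and 1 of 20 were higher (medians -0.11, -0.24 and -1.07). Sham saline library 3, 1 of the 5 libraries that stood apart, had the highest score of all 3 lists (0.43, 1.14 and 2.67). Medians within saline without it are not given here. Over all treatments 25 of 26 endothelial markers were lower, 6 with an unadjusted p under 0.05, and the median was -0.12, or -0.03 without the 5 libraries. Kdr, the main VEGF receptor, had 9.02 to 20.7 CPM in SNI, median 13.5, and 9.68 to 26.6 CPM in sham, median 16.3 (-0.22 ± 0.09). Of 18 markers of pericytes and smooth muscle 17 were lower, 4 with an unadjusted p under 0.05, and Pdgfrb, the receptor that recruits pericytes, gave -0.22 ± 0.07. Of 20 markers of fibroblasts and meninges 19 were lower, 12 with an unadjusted p under 0.05. Their median was -0.75 over all treatments and -0.18 without the 5 libraries, when none of them had an unadjusted p under 0.05, but 1 of the 5 was left out for its high score of this list. Their summed level was 176 to 297 CPM in SNI and 160 to 1020 CPM in sham, and the high libraries were all sham. Lamc1, a laminin of basement membranes, had 38.3 to 48.4 CPM in SNI, median 42.9, and 37.9 to 62.5 CPM in sham, median 49.2 (-0.17 ± 0.05).

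Of 14 antigen presentation genes 12 were lower, 7 with an unadjusted p under 0.05, and the median was -0.30, or -0.06 without the 5 libraries. H2-Aa, a class II chain, had 0.259 to 2.16 CPM in SNI and 0.331 to 18.2 CPM in sham (-1.41 ± 0.46, and -0.47 without the 5 libraries). The interferon list had a median of -0.18 over all treatments, -0.53 within saline and 0.02 without the 5 libraries. Microglial markers differed little: 7 of 22 were higher, none had an unadjusted p under 0.05, and the median was -0.01, or 0.03 without the 5 libraries. Cx3cr1, the microglial fractalkine receptor, had 112.0 to 133.0 CPM in SNI and 115.0 to 134.0 CPM in sham (-0.01 ± 0.03). Il1b, Il6, Tnf and Ccl2, cytokines tied to pain, were too low to be tested. Of 20 astrocyte markers 15 were higher, 5 with an unadjusted p under 0.05, or 2 without the 5 libraries. Their median was 0.27 within desipramine, 0.03 within tianeptine and 0.00 within saline, where 10 of 20 were higher. Agt, angiotensinogen, had the largest log2 fold change of those named (1.47 ± 0.44), at 3.28 to 113.0 CPM in SNI, highest in desipramine libraries 2 (113) and 3 (84.0), and 3.51 to 25.4 CPM in sham. Gfap, raised in reactive astrocytes, gave 0.11 ± 0.24.

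Of 41 genes of glutamate receptors and their scaffolds 32 were lower in SNI, 13 with an unadjusted p under 0.05, and 9 were higher, 5 with one (median -0.11). Without the 5 libraries 3 were lower and 2 higher with one, and within tianeptine 22 of 41 were higher. Grin1, the obligatory NMDA receptor subunit, had 329.0 to 440.0 CPM in SNI, median 391.0, and 354.0 to 471.0 CPM in sham, median 426.0 (-0.13 ± 0.04, and -0.11 without the 5 libraries). Gria1, a main AMPA receptor subunit, gave -0.04 ± 0.06, with an interval from -0.16 to 0.07. The kainate receptor subunits Grik1 and Grik4 stood at 0.59 ± 0.19 and 0.25 ± 0.06. GABA genes leaned the other way, with 16 of 22 higher, 7 of them with an unadjusted p under 0.05 (median 0.10). Without the 5 libraries 13 were higher, 2 with one and 1 lower with one (median 0.04). Slc6a11, a GABA transporter of astrocytes, had 141.0 to 778.0 CPM in SNI, median 248.0, and 131.0 to 317.0 CPM in sham, median 170.0 (0.64 ± 0.19). Of 47 voltage-gated channel genes 37 were lower, 9 with an unadjusted p under 0.05, and 5 were lower with one without the 5 libraries. Among them Kcna1, a delayed rectifier potassium channel, gave -0.29 ± 0.10.

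None of the opioid receptors passed. Oprm1, the mu-opioid receptor, had 59.4 to 91.5 CPM in SNI, median 79.1, and 35.9 to 97.9 CPM in sham, median 68.8. Its log2 fold change was 0.13 ± 0.09 with an interval from -0.06 to 0.31. Oprd1, the delta receptor, gave -0.23 ± 0.12 and Oprk1, the kappa receptor, -0.14 ± 0.15. Of the 22 genes of opioid peptides, receptors and their partners 12 were higher, and the median was 0.01. The 18 RGS genes, which shorten G protein signals, had a median of -0.08, and Rgs4 gave -0.28 ± 0.11.

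Immediate early genes, which neurons switch on with activity, were lower in 30 of 31 cases, 8 with an unadjusted p under 0.05. Their median was -0.27 over all treatments, -0.76 within desipramine, 0.00 within tianeptine and -0.26 within saline, and -0.10 without the 5 libraries, when none had an unadjusted p under 0.05. Egr1 had 30.7 to 217.0 CPM in SNI, median 130.0, and 110.0 to 244.0 CPM in sham, median 170.0 (-0.47 ± 0.19). Fos gave -0.18 ± 0.30, with an interval from -0.80 to 0.43, and Bdnf, a neurotrophin, -0.20 ± 0.44, with one from -1.09 to 0.69. Within desipramine 8 of the 31 passed, all lower (4.08% of all genes passed lower there), and 0 without SNI libraries 2 and 3. The median within desipramine was -0.45 without the 5 libraries. Clock genes had a median of -0.05, and Ciart, a clock repressor, gave 0.03 ± 0.07. Of 77 genes of cytosolic ribosomal proteins 44 were higher (median 0.00) and of 73 nuclear-encoded genes of oxidative phosphorylation 56 were (median 0.03), 1 and 6 of them with an unadjusted p under 0.05. Of the ribosomal genes 13 of 77 were higher within desipramine, 54 within tianeptine and 69 within saline, and the count was 72 over all treatments without the 5 libraries. The medians behind these counts were small, -0.085, 0.014, 0.064 and 0.035 in the same order. Of the oxidative phosphorylation genes 50 of 73 were higher within desipramine, 14 within tianeptine and 65 within saline (medians 0.045, -0.021 and 0.063). Of all genes 51.0%, 50.6% and 50.6% were higher within these treatments, and 49.3% over all treatments without the 5 libraries. Members of such lists are not independent, and the counts were not tested. All 15 transcripts of the mitochondrial genome were higher, none with an unadjusted p under 0.05 (median 0.10).

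With the 4 list scores as covariates, the median over all treatments was 0.02 for septal, hypothalamic and thalamic markers, 0.00 for medium spiny neurons and -0.01 for fibroblasts and meninges, lists that supplied the scores themselves. Among lists that supplied none, it was 0.09 for cholinergic and -0.04 for cortical excitatory markers, nearer 0 than the 0.38 and -0.40 without these covariates. For pericyte and smooth muscle markers, which share Vtn with the fibroblast list, it was -0.05 against -0.20. Other lists moved away from 0: mitochondrial genome transcripts (0.13 against 0.10), microglia (0.03 against -0.01) and metallothioneins (0.017 against 0.005). Why the medians moved was not tested.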

How the data were processed

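Whole-number counts per gene for 30 libraries were deposited. Per the submitters' processing notes, reads were handled with Trim Galore, HISAT2, SAMtools and featureCounts on mm10; the sources used here give neither versions, strand setting nor annotation release, so genes that overlap an antisense partner are less certain. The kit was stranded, per the labels. The deposited FPKM table of the same libraries was not used, and 0 columns of the counts were left out. Of 55401 gene IDs 54349 matched GENCODE M21 exactly, 792 without version and 260 not at all (0.051% of counts). With edgeR 4.0.16 (R 4.3.3), filterByExpr kept 23736 genes with 99.925% of counts, and libraries were scaled by TMM. A robust quasi-likelihood fit (25 residual degrees of freedom) had surgery, treatment and library set. The within-treatment contrasts and the interaction came from a fit of the 6 groups plus library set (23 residual degrees of freedom). Tests were 2-sided, with Benjamini-Hochberg adjustment and a threshold of 0.05. Alternatives used limma 3.58.1, DESeq2 1.42.0, other scalings, filters, covariates, replicate blocks and subsets of libraries. The test over all treatments was also run on simulated counts, drawn for each gene independently. Such counts hold no tissue differences between libraries that many genes share, so how the test behaves with those was not checked. No 2 libraries of a group were near copies (smallest chi-square per degree of freedom 6.89). Log2 CPM for scores used a prior count of 2.

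Members and gene lists were chosen with earlier results of these data known. The rule named the 10 genes of smallest p in each direction, 5 in the interaction, and for each list its first 3 members and the 5 of smallest p, with 14 genes always allowed. For genes chosen by smallest p, the counts of SNI libraries above or below the sham median follow in part from that choice. Predicted gene models were not named (9 among the higher and 11 among the lower). Positions are from GENCODE M21. Some genes are not reported here.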

Additional observations from a re-analysis of the deposited data

Results flagged for a closer look

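In groups of 4 to 6 libraries, the highest or lowest value of a named gene or list score lay far from the others in 10 of 180 cases, and chance flags about 5% of such cases. In SNI, tianeptine library 1 was the highest for Lhx5 (1.0 CPM, next 0.435) and for Fam19a4 (4.16 CPM, next 2.03). SNI desipramine library 4 was the highest for Abracl (6.89 CPM, next 4.55), and SNI desipramine library 2 had the highest endothelial score (0.232, next 0.0177). In sham, saline library 4 was the lowest for Kcns3 (2.58 CPM, next 3.49). Sham desipramine library 4 was the highest for Fzd10 (1.43 CPM, next 0.91) and for Hmgxb3 (59.2 CPM, next 54.8). Sham tianeptine library 6 was the highest for H2-Q6 (3.78 CPM, next 0.869) and for Lcn2 (3.8 CPM, next 0.0696), and sham saline library 2 was the highest for Lcn2 (3.86 CPM, next 0.194).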

How the results depend on the processing

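Of 18 other settings of the comparison over all treatments, 16 gave 0 genes passing. DESeq2 gave 1, and the average of the 3 within-treatment contrasts gave 437 (362 higher, 75 lower). That average weights the treatments equally and comes from another fit, that of the 6 groups with 23 residual degrees of freedom. Which of these made the difference was not tested. Leaving out each library gave 0 to 0 over all treatments, 0 to 2006 for the interaction and 13 to 5802 within desipramine. DESeq2 gave 290 genes for the interaction, 1 within saline and 14 within tianeptine. Within desipramine the count was 1701 with no filter on low counts, 0 without the 5 libraries and 0 without SNI desipramine libraries 2 and 3, a setting chosen after seeing the data. The causes were not tested, beyond the fewer libraries that the last 2 hold. Genes at an unadjusted p under 0.05 over all treatments numbered 470 in the second library set alone, 3403 in the first, 1007 without desipramine, 1799 without saline and 5356 without tianeptine. For the 20 named genes, 0 of 600 values with a library left out and 2 of 352 other values reversed: Fzd10 in the second library set alone (0.093) and Lcn2 without the 5 libraries (0.154). These genes were chosen by smallest p in the same libraries, so the low number of reversals follows in part from that choice. Genes under 1 CPM, such as Lhx1 and Lcn2, rest on few counts per library in the shallower first set.

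Same-numbered libraries do not pair: over 12 pairs of the first set the correlation of deviations from group means ran from -0.182 to 0.161, over 0.1 in 4. With the replicate number as a block 0 genes passed over all treatments and 2378 within desipramine, and with treatment and number pairs as a block 0 passed over all treatments. In 2 of the 12 pairs the own number correlated best.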

Other observations

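Ttr, the choroid plexus transport protein transthyretin, had 0.0382 to 14.1 CPM in SNI and 0 to 535.0 CPM in sham, where 1 library, tianeptine 6, held the highest value and the next sham library had 1.30 CPM. The gene was singled out after its values were seen.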
